A study of Caenorhabditis elegans with 6 samples.

Results

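The genes described here are those that encode the major sperm proteins (MSPs) of Caenorhabditis elegans, chosen as the rows of the deposited table whose symbol is msp followed by a number. The rule found 31 of 20473 rows. The study exposed N2 worms, the wild-type strain, to diquat dibromide monohydrate for 72 h at 20 °C. The control group had a dose of 0 µg/L and the treated group 100 µg/L, with 3 libraries of poly(A)-selected RNA from whole worms in each group, and no other genotype or agent is labelled. Diquat is a bipyridyl herbicide that cycles between oxidised and reduced forms and passes electrons to oxygen. The sources used here give neither the stage of the worms at the start of exposure nor the share of males. Nothing in the labels ties the replicates to separate cultures, so each p-value reflects the spread among these samples alone, and that spread may be technical.

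MSPs are small proteins made in large amounts during spermatogenesis, which in hermaphrodites takes place in the last larval stage, before the germline switches to oocytes. Assembled into fibrous bodies in the spermatocyte, MSP later polymerises into the filaments that drive the crawling of the amoeboid sperm, a role that actin has in other crawling cells. MSP released from sperm also acts as a hormone on oocytes and on the gonadal sheath, where it promotes meiotic maturation, ovulation and sheath contraction, in part through the Eph receptor VAB-1. The genes form a large family of near-identical, intronless copies, so reads from one copy can be counted at another.

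Levels are given as CPM, the counts of a gene relative to the total count of the library after TMM scaling, which corrects for differences in RNA composition. The total count was 23390547 to 24593469 per library and the TMM factors were 0.919 to 1.09. A floor of 3 counts is worth 0.122 to 0.128 CPM when no TMM factor is applied, a limit that covers counting error only. Differences were tested with edgeR's quasi-likelihood test over 13252 genes that passed its expression filter, with Benjamini-Hochberg adjustment over all of them and a threshold of 0.05, and every adjusted p below is from that test unless another fit is named.

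Summed over the 31 members, the msp level was lower in every diquat library than in every control library. The sum was 236, 263 and 223 CPM in control 1, 2 and 3 and 98.4, 123 and 78.4 CPM in diquat 1, 2 and 3. Group means stood 2.41-fold apart, a log2 ratio of -1.27. As a share of all counts, before any scaling, the family took 0.0237%, 0.0241% and 0.0233% in control and 0.0100%, 0.0115% and 0.00857% with diquat. The sum is the value least touched by the way reads were split among copies. In RNA from whole worms, fewer sperm or spermatocytes and less msp RNA per cell cannot be told apart.

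Of the 31 members, 28 had counts and 27 passed the expression filter. All 27 had a negative log2 fold change. By the edgeR test 18 of the 27 were lower with diquat and 0 higher, where 0.913% of all tested genes were lower. No gene of the whole table was called higher, so a count of 0 higher says nothing particular of the members or of any list below (204 of the 13252 genes were higher at an unadjusted p under 0.05). At an unadjusted p under 0.05, 26 of the 27 were lower, against 4.68% of all tested genes. The median log2 fold change was -1.31 over the 27 and 0.01 over all tested genes, and 24 of the 27 were lower by more than 2-fold. Of these 24, 17 passed the edgeR test. The share of all tested genes lower by more than 2-fold was not counted. In all 27 members the 3 diquat libraries lay below the 3 control libraries, as was so for 6.68% of all tested genes.

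**Figure D1:**
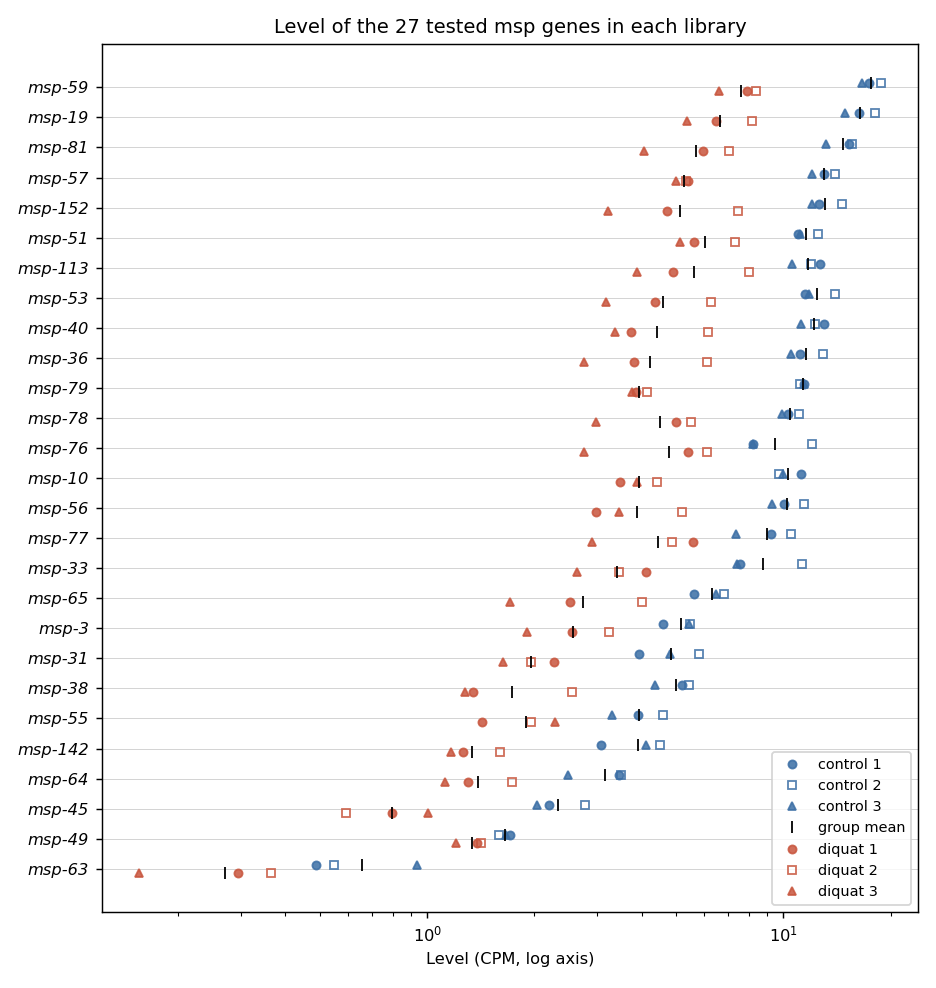
Level in CPM (horizontal log axis) of the 27 tested msp genes in each of the 6 libraries, with the group mean as a black bar and genes ordered by mean level. In every row the diquat libraries sit to the left of the control libraries, with the smallest gap at msp-49.

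The 8 members of highest mean CPM held 46.1% of the msp counts, and 7 of the 8 were lower by the test. Per length, by the deposited FPKM, the control level was highest for msp-59 at 37.96 ± 0.0766 (mean ± SD, n = 3), then msp-19 at 35.3 ± 1.28 and msp-81 at 31.3 ± 1.75. msp-152 at 27.9 ± 1.06 and msp-57 at 27.8 ± 0.540 came next and did not differ beyond their spread. With diquat the deposited FPKM of msp-59 was 16.9 ± 0.938, that of msp-19 was 14.6 ± 1.95 and that of msp-81 was 12.3 ± 2.38, and msp-51, at 13.3 ± 1.48, stood between msp-19 and msp-81.

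msp-59 (chromosome IV, 5312728 to 5313111, WBcel235, minus strand) had 17.3, 18.8 and 16.6 CPM in control and 7.88, 8.39 and 6.59 CPM with diquat. It fell by 1.21 on the log2 scale (standard error 0.16, adjusted p = 0.00317). msp-57 (chromosome IV, 5062578 to 5062961, plus strand) had 13.02, 13.99 and 12.03 CPM in control and 5.41, 5.33 and 5.002 CPM with diquat. It fell by 1.31 on the log2 scale (standard error 0.16, adjusted p = 0.00290). Both kept their call without any 1 of the 6 libraries, at adjusted p up to 0.0358.

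msp-19 (chromosome IV, 5260589 to 5260972, plus strand) had 16.3, 18.1 and 14.8 CPM in control and 6.46, 8.16 and 5.35 CPM with diquat, a log2 fold change of -1.302 (standard error 0.18, adjusted p = 0.00463; 0.0642 without diquat 1). msp-81 (chromosome IV, 9836034 to 9836417, minus strand) had 15.3, 15.5 and 13.2 CPM in control and 5.95, 7.02 and 4.07 CPM with diquat, a log2 fold change of -1.37 (standard error 0.20, adjusted p = 0.00532; 0.0654 without diquat 1). msp-53 (chromosome IV, 5064678 to 5065061, minus strand) had 11.5, 13.95 and 11.8 CPM in control and 4.36, 6.25 and 3.18 CPM with diquat, a log2 fold change of -1.44 (standard error 0.22, adjusted p = 0.00704; 0.0957 without diquat 1). In each of these 3 genes diquat 2 was the highest and diquat 3 the lowest of the treated libraries, and even diquat 2 stood well under the lowest control.

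The call was less stable for the other abundant copies. msp-152 (chromosome II, 4933027 to 4933410, plus strand) had 12.6, 14.6 and 12.03 CPM in control and 4.70, 7.48 and 3.22 CPM with diquat, a log2 fold change of -1.36 (standard error 0.25, adjusted p = 0.0252). It lost the call without control 1 (adjusted p = 0.0601), control 2 (0.127), control 3 (0.0515) or diquat 1 (0.204). msp-51 (chromosome IV, 5294957 to 5295340, minus strand) had 11, 12.5 and 11.1 CPM in control and 5.62, 7.29 and 5.12 CPM with diquat, a log2 fold change of -0.94 (standard error 0.18, adjusted p = 0.0233). It lost the call without control 1 (adjusted p = 0.0601), control 2 (0.157), control 3 (0.0586), diquat 1 (0.186) or diquat 3 (0.0525). Its neighbour msp-113 (chromosome IV, 5297962 to 5298345, plus strand) had 12.7, 11.9 and 10.6 CPM in control and 4.91, 8.02 and 3.88 CPM with diquat. Its log2 fold change was -1.07 (standard error 0.23, adjusted p = 0.0573), and it passed without diquat 2 (0.00331), the treated library in which it was highest, and with the replicate number as a block (9.63e-06).

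The largest falls among the tested members were close to each other in size. msp-142 (chromosome II, 5797927 to 5798310, plus strand) had 3.08, 4.51 and 4.11 CPM in control and 1.26, 1.60 and 1.16 CPM with diquat, a log2 fold change of -1.54 (standard error 0.26, adjusted p = 0.0119; 0.0886 without control 2, 0.0520 without control 3 and 0.109 without diquat 1). msp-38 (chromosome IV, 10143357 to 10143740, minus strand) had 5.19, 5.42 and 4.35 CPM in control and 1.34, 2.55 and 1.28 CPM with diquat, also a log2 fold change of -1.54 (standard error 0.28, adjusted p = 0.0168; 0.0601 without control 1, 0.0916 without control 2 and 0.159 without diquat 1). msp-79 (chromosome IV, 9766771 to 9767154, minus strand) had 11.4, 11.1 and 11.4 CPM in control and 3.86, 4.15 and 3.76 CPM with diquat. It fell by 1.53 (standard error 0.16, adjusted p = 0.00211) and kept its call without any 1 library, at adjusted p up to 0.0358. Its control libraries had a coefficient of variation of 1.58%, the lowest of the tested members in control.

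The smallest differences were those of msp-49, msp-51, given above, and msp-76. msp-49 (chromosome II, 5194366 to 5194749, plus strand) had 42, 35 and 41 counts in control and 33, 31 and 31 with diquat, or 1.70, 1.60 and 1.67 CPM against 1.38, 1.41 and 1.20 CPM. The groups did not overlap, but the log2 fold change was -0.31 (95% interval -0.91 to 0.28, adjusted p = 0.829), and it did not pass with the replicate block either (0.586). The interval leaves out the median of the tested members, -1.31. msp-76 (chromosome IV, 9689015 to 9689398, plus strand) had 8.24, 11.99 and 8.21 CPM in control and 5.41, 6.11 and 2.75 CPM with diquat, a log2 fold change of -0.9985 (standard error 0.27, adjusted p = 0.183; 9.73e-05 with the replicate block). Control 2 was the one high control library of msp-76.

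**Figure D2:**
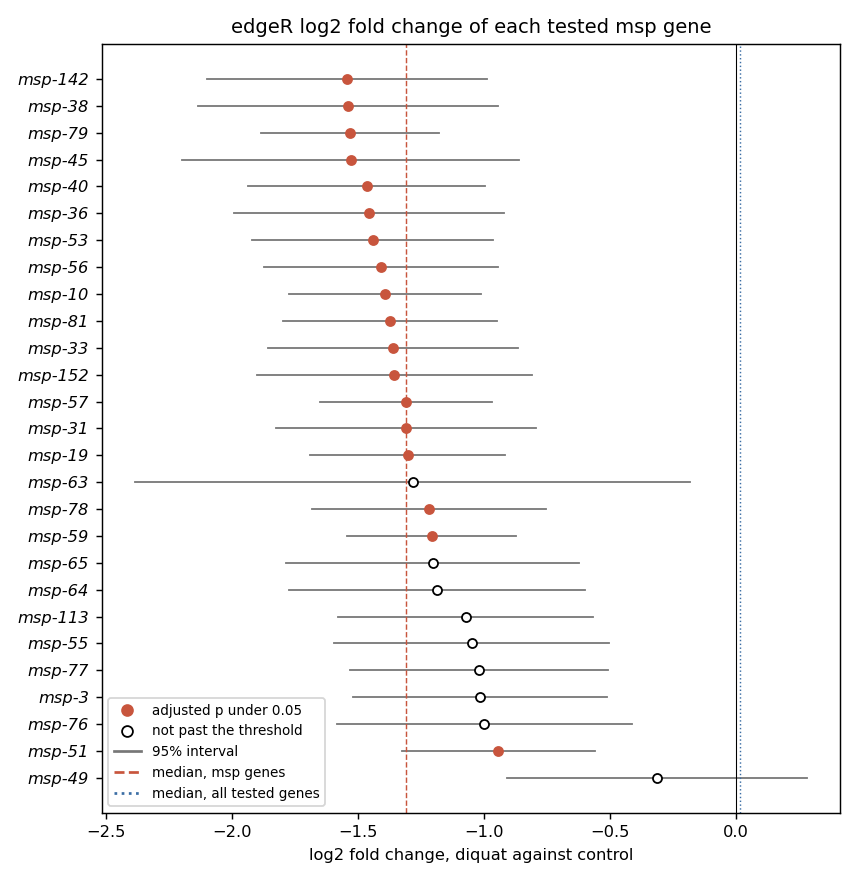
edgeR log2 fold change of each tested msp gene (horizontal axis, diquat against control) with its 95% interval, filled where the adjusted p is under 0.05. The estimates lie between -1.54 and -0.31, and 26 of the 27 intervals stay below 0, the exception being msp-49.

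The remaining tested members lay between these. msp-40, msp-36, msp-56, msp-10, msp-33, msp-31, msp-78 and msp-45 also fell, with log2 fold changes from -1.53 for msp-45 to -1.22 for msp-78 and adjusted p from 0.00317 for msp-10 to 0.0357 for msp-45. All of these but msp-10 lost the call without at least 1 library, most often diquat 1, with the highest adjusted p between 0.0822 for msp-40 and 0.236 for msp-45. Of the 27 tested members 4 kept the call without any 1 library, namely msp-59, msp-57, msp-79 and msp-10. How many of all tested genes did so was not counted. msp-77, msp-65, msp-64, msp-3 and msp-55 had log2 fold changes from -1.20 for msp-65 to -1.02 for msp-3 and adjusted p from 0.0620 for msp-65 to 0.0904 for msp-55. msp-63 had only 12, 12 and 23 counts in control and 7, 8 and 4 with diquat, and its log2 fold change of -1.28 had an interval of -2.38 to -0.18 (adjusted p = 0.640).

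A few members gave no testable value. msp-50 had 2, 2 and 3 counts in control and 0 in each diquat library, which is at or under the floor in both groups, so no fold is given. msp-32, msp-58 and msp-74 had 0 counts in all 6 libraries, which allows up to 0.122 to 0.128 CPM in a library. msp-74 (chromosome II, 5115102 to 5115335) is annotated to the same protein entry as F58A6.9 (chromosome II, 5158641 to 5158874), a gene with no msp name and the same coding length of 234 bases. F58A6.9 had 36, 46 and 40 counts in control and 8, 11 and 16 with diquat (log2 fold change -1.81, adjusted p = 0.0329). The sources used here do not say how reads were shared between these rows, so a 0 at msp-74 does not show that it was silent.

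The copies lie in 3 stretches of the genome, and genes fell in each of them. Of the 31 genes, 13 are on chromosome II between 4785898 and 5810330, 9 on chromosome IV between 5055631 and 5316906, and 9 further along chromosome IV between 9689015 and 10143740, where a gap of more than 1 Mb was taken to separate stretches. All 31 are annotated with 1 exon, and 28 have a coding length of 384 bases with no untranslated region in the annotation. The summed level of the chromosome II genes was 52.7, 62.4 and 52.2 CPM in control and 22.4, 28.0 and 17.4 CPM with diquat. In the first chromosome IV stretch the sum was 91.3, 101 and 86.8 CPM in control and 38.6, 49.4 and 33.1 CPM with diquat. In the second chromosome IV stretch it was 92.1, 99.7 and 84.2 CPM in control and 37.4, 46.0 and 27.8 CPM with diquat. The log2 ratios of the group means were -1.303, -1.203 and -1.312 in that order, and 6 of 10, 5 of 8 and 7 of 9 tested members fell.

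Of the tested genes other than members, 3 of 174 fell in the chromosome II stretch, 3 of 33 in the first chromosome IV stretch and 6 of 76 in the second. Over all tested genes 0.913% were lower. The median log2 fold changes of these neighbours were 0.08, -0.18 and 0.08. With the replicate block 7, 8 and 10 of them were lower and 12, 2 and 8 higher. The block called 4% of all tested genes lower and 4.51% higher. The called genes, chosen after their values were seen, were the cuticle genes col-73 and bli-2 and F58A6.9 on chromosome II, then Y59E9AL.2, Y59E9AL.3 and Y59E9AR.7, and then ssq-1, C04G2.9, msd-1, msd-2, gipc-2 and the collagen col-2. F58A6.9 and Y59E9AR.7 are themselves described as major sperm protein, and msd-1 and msd-2 as containing its domain. Y59E9AL.2 and Y59E9AL.3 carry the same protein entry.

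**Figure D3:**
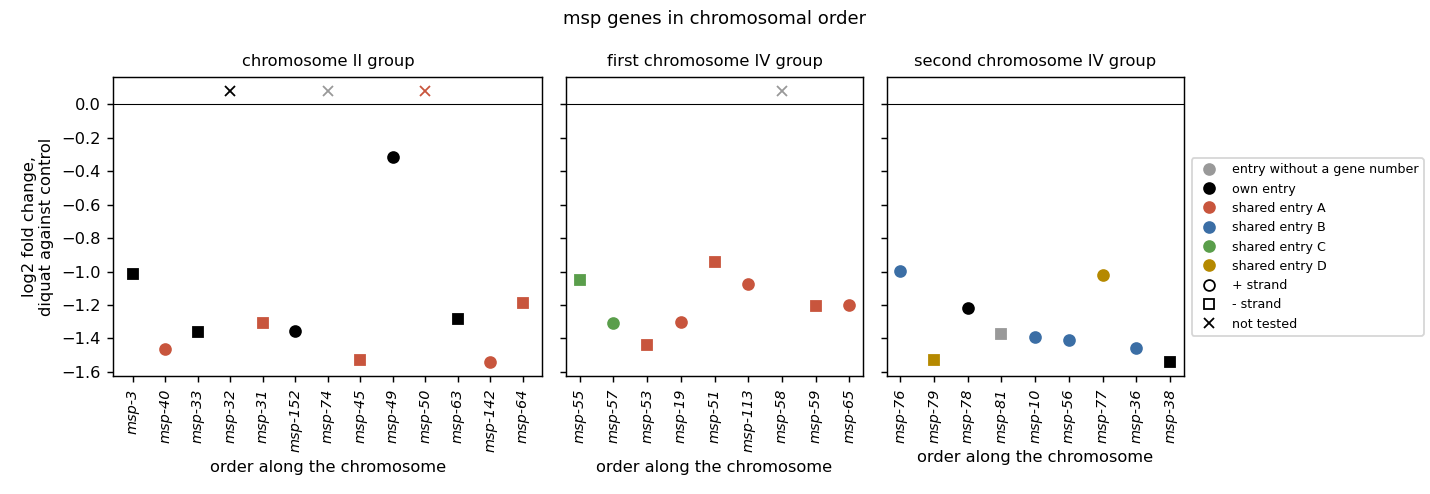
log2 fold change (vertical axis, diquat against control) of each msp gene in its order along the 3 stretches, coloured by the protein entry in the deposited table, with the strand as the marker shape and untested genes as crosses placed above 0. The tested genes of every stretch and every entry lie below 0.

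The deposited table assigns many members to shared protein entries, so that several genes carry the same protein name. The largest entry, shared entry A, takes in 12 members (msp-19, msp-31, msp-40, msp-45, msp-50, msp-51, msp-53, msp-59, msp-64, msp-65, msp-113 and msp-142). Its sum was 100, 111 and 96.2 CPM in control and 41.1, 54.2 and 34.1 CPM with diquat, a log2 ratio of -1.25, and 8 of 11 tested genes fell. Shared entry B (msp-10, msp-36, msp-56 and msp-76) had a log2 ratio of -1.31, shared entry C (msp-55 and msp-57) of -1.25 and shared entry D (msp-77 and msp-79) of -1.28. Genes under 1 entry still had unequal estimates: msp-79 had a log2 fold change of -1.53 and msp-77 of -1.02, with intervals of -1.88 to -1.18 and -1.53 to -0.51 that overlap. Members with an entry of their own, msp-3, msp-33, msp-38, msp-49, msp-63, msp-78 and msp-152 among those tested, had a log2 ratio of the sums of -1.24.

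The share that each gene took of the msp counts was also compared. Of the 31 members, 2 took a larger share of the msp counts in every diquat library than in any control library. Apart from msp-50, which is at or under the floor, none took a smaller one in every diquat library. msp-49 took 0.722%, 0.607% and 0.747% in control and 1.41%, 1.15% and 1.53% with diquat. msp-51 took 4.66%, 4.77% and 4.97% in control and 5.71%, 5.91% and 6.53% with diquat. These shares were not tested. Across the 27 tested members, log2 fold change and mean level had a Spearman correlation of -0.04 and a Pearson correlation of -0.18 on log2 CPM, a description over genes measured in the same libraries.

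Within each group the members moved together between libraries. Control 2 was the highest control library for 21 of the 27 tested members and control 3 the lowest for 17, and diquat 2 was the highest diquat library for 21 and diquat 3 the lowest for 23. The median coefficient of variation over members was 10.3% in control and 26.1% with diquat. The libraries numbered 2 have the smallest TMM factors and those numbered 3 the largest, so scaling alone spreads CPM in this order. The share of all counts, which has no TMM factor, ran in the same order.

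The members come from the same libraries, so their calls are not independent, and the count of calls depended on which library was left out. The count was 13 without control 1 (0.526% of all tested genes lower), 9 without control 2 (0.281%), 13 without control 3 (0.615%), 4 without diquat 1 (0.199%), 20 without diquat 2 (0.853%) and 17 without diquat 3 (0.68%). The median log2 fold change stayed between -1.42 and -1.19 in these fits. With the replicate number as a block 25 of the 27 fell, all 18 among them, where 4% of all tested genes were lower. The 2 members not called with the block were msp-49 and msp-63.

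The msp genes are short, with a coding length of 384 bases in 28 of them, against a median exon length of 1416 bases over the tested genes. With each library's length trend removed 13 of the 27 members fell, all of them among the 18, where 0.699% of all tested genes were lower, and the median log2 fold change was -1.12. With the block and the length trend together 25 fell, where 6.3% of all tested genes were lower and 3.49% higher. Of the 31 members, 23 have an FDR under 0.05 in the authors' deposited table, each with a negative log2 fold change. The sources used here do not name the test. How many of all rows have such an FDR was not counted, so these 23 have no background beside them.

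Part of the other sperm families with an MSP domain fell as well. The list holds the msd genes, named for the domain, and the ssp genes, the sperm-specific family class P, and 6 of 11 tested genes fell (8 with the replicate block), with a median log2 fold change of -1.48. ssp-9, ssp-10, ssp-31, ssp-35 and ssp-37 did not pass, with log2 fold changes from -1.48 for ssp-31 to -0.33 for ssp-9. The summed level was 45.7, 48.7 and 46.1 CPM in control and 21.8, 22.4 and 15.7 CPM with diquat, a log2 ratio of -1.23 beside -1.27 for the msp genes. msd-2 (log2 fold change -1.56, adjusted p = 0.00353) and ssp-11 (-4.66, 0.00641) kept their calls without any 1 library. ssp-11 had 165, 84 and 90 counts in control and 13, 0 and 0 with diquat, so its fitted size depends on the prior count. msd-1 (-1.79, 0.00852) lost its call without diquat 1 (0.1196) and msd-4 (-1.41, 0.00874) without control 2 (0.0586). ssp-34 (-1.59, 0.0437) lost its call whichever library was left out (0.0595 to 0.257), and ssp-16 (-1.58, 0.0329) kept its call only without diquat 2 (0.0492).

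A list of other sperm-enriched genes was set beside them. Of 18 tested genes in it, 11 fell (15 with the replicate block, with spch-1, nspd-2, nspd-3 and nspd-4 added), all 18 had a negative log2 fold change, and the median was -1.27. nspd-6, nspd-7 and nspd-10 passed in neither fit, with log2 fold changes of -0.73, -0.60 and -1.54. Their sum was 113, 139 and 119 CPM in control and 50.9, 64.0 and 39.4 CPM with diquat, a log2 ratio of -1.26. gipc-2 fell by 1.71 on the log2 scale (adjusted p = 0.00317) and kept its call without any 1 library. The sperm chromatin gene spch-3 fell by 1.32 (0.00532; 0.0737 without diquat 1) and spch-2 by 1.38 (0.0131; 0.0580 without control 2 and 0.0552 without control 3). ssq-2, of the sperm-specific family class Q, fell by 1.33 (0.00824; 0.0561 without control 2 and 0.0964 without diquat 1). gsp-3, which encodes a sperm-enriched protein phosphatase, fell by 1.31 (0.0138) and its relative gsp-4 fell by 1.16 (0.0182), and both lost the call without control 2 (0.0916 and 0.0930), control 3 (0.0633 and 0.0721) or diquat 1 (0.133 and 0.137). The other called genes, ssq-1, ssq-3, ssq-4, gipc-1 and nspd-1, each lost the call without control 2 and without diquat 1. nspd-1 lost its call whichever library was left out (adjusted p 0.0841 to 0.2005). Whether the msp genes differed more or less than these lists was not tested.

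The genes that act on MSP in the spermatocyte, or that give sperm their motility and function, were mostly low and gave few testable values. Of 29 genes in the table, 12 were tested, 0 fell and 0 rose, where 0.913% of all tested genes were lower. The median log2 fold change was -0.04, with 7 of the 12 negative. Single estimates ran from -1.14 for fer-1 to 0.29 for spe-39, so the median does not stand for each gene. The 12 include spe-44 and elt-1, given below, and wee-1.3, which held most of the summed level (136 of 221 CPM, control means). In 3 of the 12, spe-18, spe-41 and fer-1, all diquat libraries lay below all control libraries, as was so for 6.68% of all tested genes. With the replicate block spe-18 was lower and spe-39 higher. spe-18, which is needed for MSP to assemble into fibrous bodies and is listed in the table as F32A11.3, had 200, 189 and 203 counts in control and 93, 132 and 91 with diquat. Its groups did not overlap, and its log2 fold change was -0.90 (standard error 0.21, adjusted p = 0.0814; 0.000433 with the replicate block). spe-6, a casein kinase family member needed for fibrous bodies, had 45, 23 and 34 counts in control and 29, 45 and 36 with diquat (log2 fold change 0.12, adjusted p = 0.951). fer-1, needed for the fusion of membranous organelles when sperm are activated, had 18, 21 and 18 counts in control and 6, 9 and 11 with diquat (-1.14, 0.561).

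Regulators of the sperm programme did not pass the test. spe-44, a transcription factor of the spermatogenesis programme, had 247, 250 and 271 counts in control and 251, 246 and 269 with diquat (log2 fold change -0.01, adjusted p = 0.991). elt-1, which encodes a GATA factor, had 333, 310 and 393 counts in control and 399, 293 and 524 with diquat (0.21, 0.821). Of 12 tested regulators of sperm fate, 0 passed, the median log2 fold change was 0.10, and tra-2 was higher only with the replicate block (0.44, blocked adjusted p = 0.000887; 0.741 without the block).

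The receiving side of the MSP signal did not pass the test either. Of 25 genes of MSP signalling in the oocyte and sheath 0 fell and 0 rose, at a median log2 fold change of 0.00, and only ptp-2 passed with the block, as higher (0.32, blocked adjusted p = 0.00983; 0.766 without it). The receptor gene vab-1 had 2713, 2672 and 3346 counts in control and 3285, 2982 and 3468 with diquat (log2 fold change 0.15, standard error 0.11, 95% interval -0.09 to 0.39, adjusted p = 0.821). ceh-18, a homeobox gene of the sheath, had 285, 226 and 243 counts in control and 272, 247 and 186 with diquat (-0.09, 0.932).

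Markers of other cells of the worm were set beside the msp values. Of 22 oocyte markers 0 passed (only chs-1 did with the block, as higher), with a median log2 fold change of -0.02 and a summed level of 21100 to 24830 CPM in control and 18860 to 25400 CPM with diquat. Of 19 markers of mitotic and meiotic germ cells 0 passed, with a median of 0.04. Of the 6 yolk genes 0 passed, with a median of 0.27, and vit-1, vit-3, vit-4 and vit-5 were higher with the block, at blocked adjusted p up to 0.00158. None of 10 markers of the male nervous system and seminal fluid passed the expression filter. Their sum was 1.01 to 1.41 CPM in control and 1.3 to 1.82 CPM with diquat, cwp-3 was at 0 in every library, and lov-1, pkd-2, cwp-1 and cwp-2 had at most 4 counts in a library, pkd-2 in the diquat libraries alone.

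Part of the markers of the adult and late larval cuticle fell as well. Of these 8 genes 5 fell and 0 rose, and all 8 had groups that did not overlap, with a median log2 fold change of -1.38 and a sum of 1024 to 1290 CPM in control and 639 to 884 CPM with diquat, a log2 ratio of -0.53. Most of this sum was col-19, an adult collagen gene with a mean of 1057 CPM in control and 757 CPM with diquat, which did not pass (log2 fold change -0.48, adjusted p = 0.2797). The 5 were col-63, bli-6, rol-1, bli-2 and col-7, with log2 fold changes from -1.82 for col-63 to -1.32 for col-7, and with the block all 8 were lower. col-63 and bli-6 kept the call without any 1 library. rol-1 lost it without diquat 1 (adjusted p = 0.0822), bli-2 without control 2 (0.127), control 3 (0.127), diquat 1 (0.194) or diquat 3 (0.0655), and col-7 without any 1 library other than diquat 2 (0.0586 to 0.204). The part of developmental stage in the msp result was not tested.

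**Figure D4:**
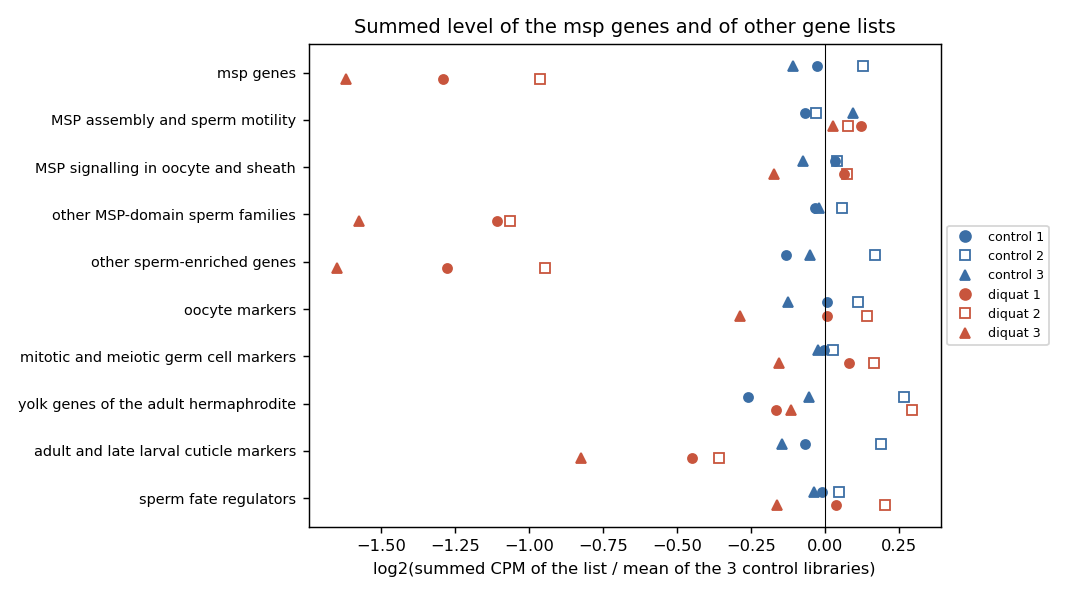
Summed level of the msp genes and of the other gene lists that have tested genes in each library, as log2 of the sum over the mean of the 3 control libraries (horizontal axis). The diquat libraries lie below the control libraries for the msp genes, the other MSP-domain families, the other sperm-enriched genes and the cuticle markers, and the groups overlap for the other lists drawn. Most of the sum for MSP assembly and sperm motility is wee-1.3, and most of the cuticle sum is col-19.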

How the data were processed

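The deposited table, 1 for the series, holds 20473 rows, 20191 of them with a WormBase identifier. Per the file headers it gives a count per gene and library; build WBcel235 and the tools RSEM, StringTie 1.3.1, HISAT2 and fastp 0.18.0 are listed in the submitters' processing notes, without their roles. RSEM yields estimated counts, and in 94 places the table pairs an FPKM above 0 with a count of 0. The deposited whole numbers were therefore handled as estimated counts that had been rounded. The authors also deposited FPKM, its group means, a log2 fold change of these means, and a p-value and FDR. Their test, the strand setting and the handling of reads that match several copies are not given in the sources used here. Of the rows, 20105 matched the WBcel235 annotation (Ensembl release 115).

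Tests used edgeR 4.0.16 in R 4.3.3 (quasi-likelihood, TMM, default filter, robust dispersion) on all 6 libraries of the whole table, with group as the only term. DESeq2 1.42.0, limma 3.58.1 (voom, and log2 FPKM with a pseudocount of 0.1), other filters and scalings, a replicate block, a length correction and leaving out each library were alternatives. The scripts were tested on simulated data. Deviations of same-numbered libraries correlated at 0.155, 0.200 and 0.459, all above 0.1, so the label numbers were taken to pair the libraries. Control 1 also correlated with diquat 2 at 0.208, above the 0.155 and 0.200 of same-numbered libraries 1 and 2. The correlations therefore do not single out these pairs, which have only a shared label number. The labels give a replicate number and state no pairing, and the correlations come from these same data. The blocked fits, with their smaller p-values, are therefore alternatives that the stated design does not call for. Libraries of 1 group all differed by more than sampling noise. Members, lists and tests were chosen with earlier results of these data known. Values per library are printed for the 8 members of highest mean CPM and the 3 most and 3 least negative log2 fold changes; of each list, up to 4 called genes by adjusted p are named with their statistics, as are spe-44, elt-1, vab-1, ceh-18, spe-6, spe-18, gsp-3 and gsp-4. Other genes named were chosen after their values were seen.

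msp-31 overlaps aagr-2 and msp-45 srb-13 on the same strand, and msp-33 overlaps gst-9 and msp-38 dhs-12 on the opposite strand, so their counts may include reads of these genes. Summed over the 6 libraries, aagr-2 had 8311 counts, dhs-12 3645, gst-9 51 and srb-13 only 1.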

Additional observations from a re-analysis of the deposited data

How the results depend on the processing

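The sum and the median log2 fold change of the msp genes kept their direction in every alternative run, the median between -1.42 and -1.115 and the log2 ratio of the sums between -1.45 and -1.12, and no single member reversed. The number of members called lower was 18 with RLE scaling (109 over all genes) and with at least 10 counts in 3 libraries (121), 20 with limma-voom (118), 22 with limma on log2 FPKM (129), 23 with DESeq2 (156) and 24 with no filter (170), and 4 to 20 when 1 library was left out. Over all genes, 121 were called lower, 530 with the replicate block, 820 with the block plus removal of the length trend, and 27 to 116 when 1 library was left out. Higher calls over all genes went from 0 to 598 with the block, so over the whole table the calls were one-sided without the block and not with it. The block changed the call of msp-3, msp-55, msp-64, msp-65, msp-76, msp-77 and msp-113 and of no other member. Of the alternatives for single members, 331 left the call as it was, 40 lost it and 34 gained it. The cause was not tested. Single copies are limited by the sharing of reads, and msp-63 and msp-50 by depth.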

Other observations

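A further set, chosen after the table was seen, left out the msp names and msd-1, msd-2 and msd-4, which fell and are given above. Among those left out, msd-1 and msd-2 are described as major sperm protein domain containing and missed the set only by the capital letters of that description. The set holds genes described in the deposited table as major sperm protein or MSP domain-containing. Without msd-1 and msd-2 they were mixed. Of 57 such genes 21 passed the expression filter, 3 fell and 0 rose (10 were lower with the replicate block), and the median log2 fold change was -0.77. Over all tested genes 0.913% were lower, and 4% with the block. F21H7.5 (chromosome V, 16237523 to 16238829) had 154, 145 and 142 counts in control and 65, 42 and 45 with diquat (log2 fold change -1.54, edgeR adjusted p = 0.00532). F58A6.9 and Y59E9AR.7 were the others of this set that fell, at -1.81 and -1.71 (0.0329 and 0.0372). By contrast vpr-1, a broadly expressed gene with an MSP domain, had 2573 to 3071 counts in control and 2512 to 3109 with diquat (0.04, 0.948), C34D10.1 had a log2 fold change of -0.14 (0.864) and hpo-28 of 0.11 (0.923).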
